A study of Mus with 8 samples.

Results

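The genes described here are 38 genes of glucose breakdown and of the response to low oxygen, chosen by name. They fall into 18 genes of glycolysis, 6 genes that decide the fate of pyruvate and lactate, and 14 hypoxia-type genes, of which 4 encode the oxygen-sensing factors and 10 are genes that hypoxia induces. 34 of the 38 had a listed probe and 31 passed the filter on dim probes, out of 11859 genes tested in all. Hk2, Gpi1, Eno1 and Ldhb had no probe listed in the annotation used and were not analysed here. The single probe of Bnip3, a mitochondrial cell-death and mitophagy protein, was detected on 0 of 4 KO and 1 of 4 WT arrays. The probes of Slc16a1, a lactate transporter, and of Ero1l (now Ero1a), an oxidase of the endoplasmic reticulum, were each detected on at most 1 of the 8 arrays. These 3 genes did not pass the filter.

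Smooth muscle cells were grown from the aorta of male mice, 8 weeks old and of the strain C57 black 6, in medium with 15% fetal calf serum, and their RNA, taken at passage 1, was hybridised to Illumina bead arrays. The 4 KO cultures came from mice with a floxed Tie2 gene and a Cre transgene under the SM22α promoter, which is active in smooth muscle, and the 4 WT cultures from mice with the same floxed gene and no Cre. All 8 cultures therefore carried the floxed allele, and no group carried Cre without the floxed allele. Whether a culture stands for 1 mouse or for pooled mice is not given in the labels, so a p-value here reflects the spread among the 8 cultures, which may be technical.

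Glycolysis splits glucose into pyruvate. Glucose enters through transporters of the Slc2a family, is committed at the phosphofructokinase step, and leaves as pyruvate, which lactate dehydrogenase turns into lactate or the mitochondrion oxidises unless pyruvate dehydrogenase kinases block that entry. Hypoxia-inducible factors are degraded while oxygen lets the Egln prolyl hydroxylases mark them. When oxygen is short they accumulate as protein and raise the transcription of many glycolytic genes and of a set of hypoxia genes such as Egln3, Ankrd37 and Pdk1. Smooth muscle cells in culture are known to rely strongly on glycolysis.

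Tek, which encodes Tie2, checks the labels. Its log2 intensity was 4.78, 5.56, 5.36 and 5.26 in KO replicates 1 to 4, against 6.44, 7.42, 6.66 and 6.35 in WT replicates 1 to 4, so every KO culture lay below every WT culture. The log2 fold change of Tek was -1.48, with an unadjusted limma p of 0.00047 and a limma adjusted p of 0.810. Tek itself therefore had no adjusted p under 0.05. Its probe was detected on 4 of 4 KO and 4 of 4 WT arrays. The arrays had median scanner intensities from 94.7 to 128.1, and 44.9% to 49.5% of their probes were detected. KO replicates 3 and 4 were hybridised on slide 2 and all other cultures on slide 1, so values within slide 1 compare KO replicates 1 and 2 with the 4 WT cultures. WT replicate 2 stood apart from the rest. It had the highest level of 21.0% and the lowest level of 21.3% of all 11859 genes, and results that rest on it are given with and without it. All 8 smooth muscle markers were tested, and 7 were detected on every array. Cnn1 was the exception, at 3 of 4 KO and 1 of 4 WT arrays.

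Between KO and WT cultures, 0 of the 31 genes had a limma adjusted p under 0.05, and the smallest adjusted p among them was 0.828. Over all genes, 0 (0%) passed. At an unadjusted p under 0.05, 0 of the 31 were higher in KO and 1, Higd1a, was lower, against 5.74% of all genes in either direction, 2.61% higher and 3.13% lower. In 0 of the 31 genes did the 4 KO and 4 WT cultures fail to overlap, against 3.28% of all genes, 1.61% higher and 1.67% lower in KO. 18 of the 31 were higher in KO by sign and 13 lower, where 50.3% of all genes were lower. Their median log2 fold change was 0.07, against -0.0024 over all genes.

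**Figure D1:**
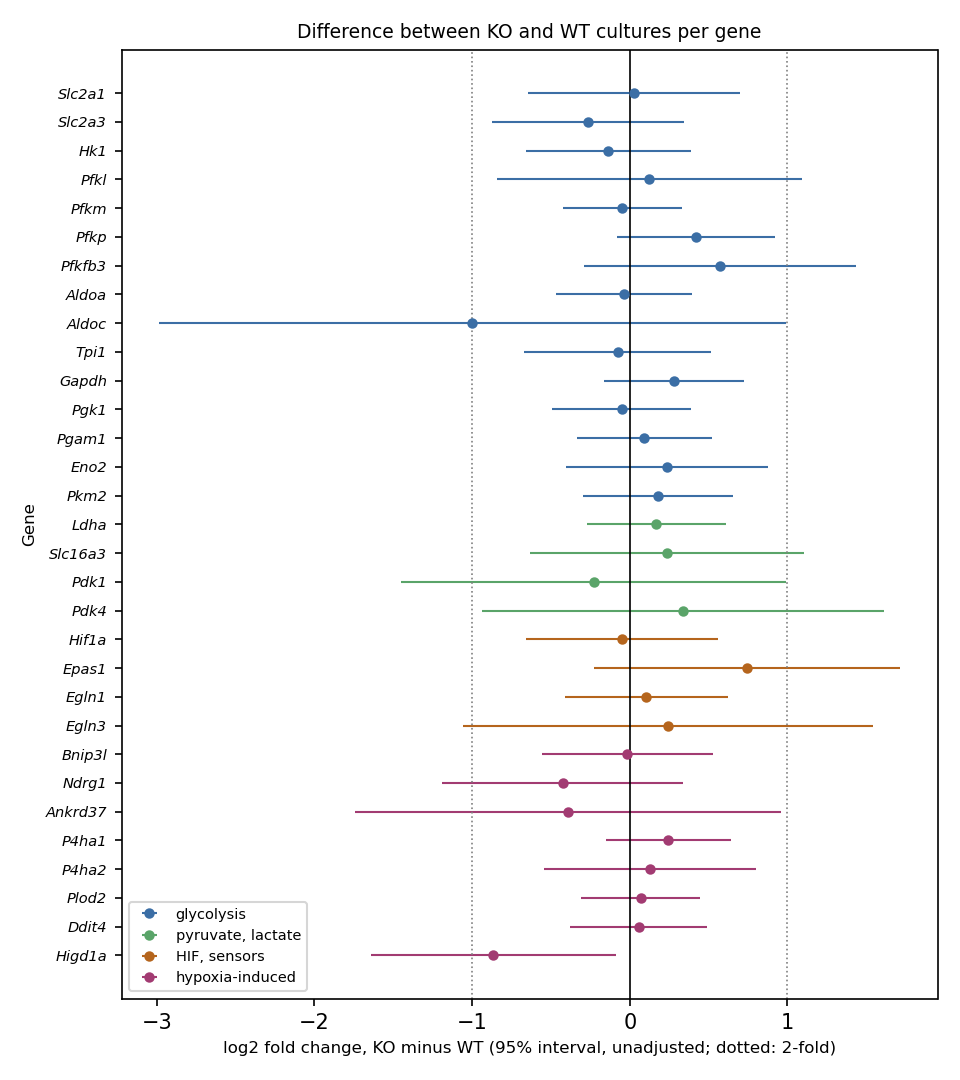
Log2 fold change of KO over WT cultures for each of the 31 tested genes (points), with 95% intervals from the limma fit that are not adjusted for the number of genes (bars), coloured by role. The intervals of 20 genes lie inside the dotted 2-fold lines, and the interval of Higd1a alone leaves out 0.

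The intervals give the range of differences that these 8 arrays leave possible. For 20 of the 31 genes the 95% interval of the fold change lay within 2-fold in either direction, and for 7 of them within 1.5-fold. Those 7 were Pfkm, Aldoa, Pgk1 and Pgam1 of glycolysis and Bnip3l, Plod2 and Ddit4 of the hypoxia-induced set. The intervals of the other 11 genes, Higd1a among them, reached past 2-fold in at least 1 direction.

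Among the glucose transporters and the early enzymes, no difference exceeded the spread between cultures. Slc2a1, the main glucose transporter of most cultured cells, had log2 intensities of 10.56, 11.51, 10.31 and 11.26 in KO replicates 1 to 4, against 10.50, 11.29, 10.92 and 10.83 in WT replicates 1 to 4. The WT cultures lay inside the KO range, the log2 fold change was 0.03 with a standard error of 0.30, and its sign turned when KO replicate 2, KO replicate 4 or WT replicate 1 was left out. Slc2a3, a second glucose transporter, had a log2 fold change of -0.26 ± 0.27 (SE), and Hk1, the hexokinase that traps glucose in the cell, -0.14 ± 0.23 (SE). Within slide 1 these 2 values were -0.68, with a limma adjusted p of 0.989 and an unadjusted p of 0.024, and -0.38. The adjusted p of Slc2a3 lay between 0.748 and 0.999 over the 18 alternatives.

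The phosphofructokinase step gave the smallest p of the glycolysis genes. Pfkp, the platelet-type phosphofructokinase, had log2 intensities of 9.28, 9.59, 9.97 and 9.68 in KO replicates 1 to 4, against 8.83, 9.04, 9.59 and 9.39 in WT replicates 1 to 4. The KO values tended to be the higher ones, but WT replicates 3 and 4 lay among them. The means were 9.63 ± 0.29 (SD, n = 4) in KO and 9.21 ± 0.34 (SD, n = 4) in WT, with a log2 fold change of 0.42 ± 0.22 (SE), a limma adjusted p of 0.828 and an exact permutation p of 0.143. A second Pfkp probe gave 0.61, with every KO culture above every WT culture, and the third was detected on 0 of 4 KO and 1 of 4 WT arrays. Within slide 1 the value of the first probe was 0.22.

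Pfkm, the muscle form of phosphofructokinase, and Pfkl, the liver form, had log2 fold changes of -0.05 ± 0.17 and 0.12 ± 0.43 (SE). Pfkl, described after its values were seen, stood at 9.62, 10.44, 10.31 and 10.94 in KO replicates 1 to 4 and at 9.51, 11.39, 9.95 and 9.97 in WT replicates 1 to 4, where WT replicate 2 was the highest of all. Without it the log2 fold change was 0.52, and within slide 1 it was -0.17. Pfkfb3, which makes the allosteric activator of phosphofructokinase, had log2 intensities of 5.41, 6.03, 5.39 and 5.14 in KO replicates 1 to 4, against 5.19, 4.37, 4.22 and 5.90 in WT replicates 1 to 4. Its probe was detected on 4 of 4 KO and 2 of 4 WT arrays. Its log2 fold change of 0.57 ± 0.38 (SE) was 0.21 in the value table that the authors normalized.

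In the lower part of glycolysis no gene passed the test. Gapdh, glyceraldehyde-3-phosphate dehydrogenase, had log2 intensities of 13.22, 13.19, 13.57 and 13.95 in KO replicates 1 to 4, against 13.16, 13.26, 13.07 and 13.33 in WT replicates 1 to 4. The KO values above the WT range were those of replicates 3 and 4, the cultures of slide 2, and the log2 fold change of 0.28 ± 0.20 (SE) was 0.0025 within slide 1. Pgk1, the first enzyme of the pathway to make ATP, had log2 intensities of 12.83, 12.82, 12.36 and 12.73 in KO replicates 1 to 4, against 12.70, 13.12, 12.41 and 12.70 in WT replicates 1 to 4. The groups lay over each other, with a log2 fold change of -0.05 ± 0.19 (SE).

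Aldoa, Tpi1, Pgam1, Eno2 and Pkm2, which carry the carbon from aldolase to pyruvate kinase, had log2 fold changes between -0.08 and 0.24, with standard errors between 0.19 and 0.28. The probes of a gene did not always run the same way. Tpi1, triosephosphate isomerase, gave -0.08 and -0.26 with its 2 brighter probes and 0.42 with the dimmest, whose KO values of 7.53 to 7.72 all lay above the WT values of 6.96 to 7.30. In a fit over all probes with a gene, without the filter, that probe had an unadjusted limma p of 0.0043 and an adjusted p of 0.8292. Pgam1, phosphoglycerate mutase, gave 0.09 and -0.58, and Pfkl 0.12 and -0.40. The second probe of Pkm2 (now Pkm), pyruvate kinase, gave 0.37 where the first gave 0.18.

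Aldoc, the brain-type aldolase, was an exception in its spread, and is described after its values were seen. It stood at 6.29, 5.46, 4.37 and 4.61 in KO replicates 1 to 4, against 6.75, 8.62, 4.65 and 4.71 in WT replicates 1 to 4, detected on 2 of 4 KO and 3 of 4 WT arrays. In both groups replicates 1 and 2 were higher than replicates 3 and 4. Its difference of -0.999 ± 0.87 (log2, SE) was -0.19 without WT replicate 2 and -0.31 within slide 1. A second Aldoc probe, detected on 0 of 4 KO and 0 of 4 WT arrays, gave -0.03. The mean centred log2 level of 8 macrophage markers stood at 0.90, 0.47, -2.17 and -1.06 in KO replicates 1 to 4 and at 1.49, 2.08, -1.45 and -0.26 in WT replicates 1 to 4, so the 4 cultures with the higher Aldoc were the 4 with the higher macrophage markers. 7 of the 8 markers were detected on every array, with Ptprc as the exception, and all 8 were lower in KO by sign. The KO minus WT difference of their mean centred level was -0.93 over all cultures but 0.22 within slide 1. The part of these markers in the level of Aldoc was not tested.

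**Figure D2:**
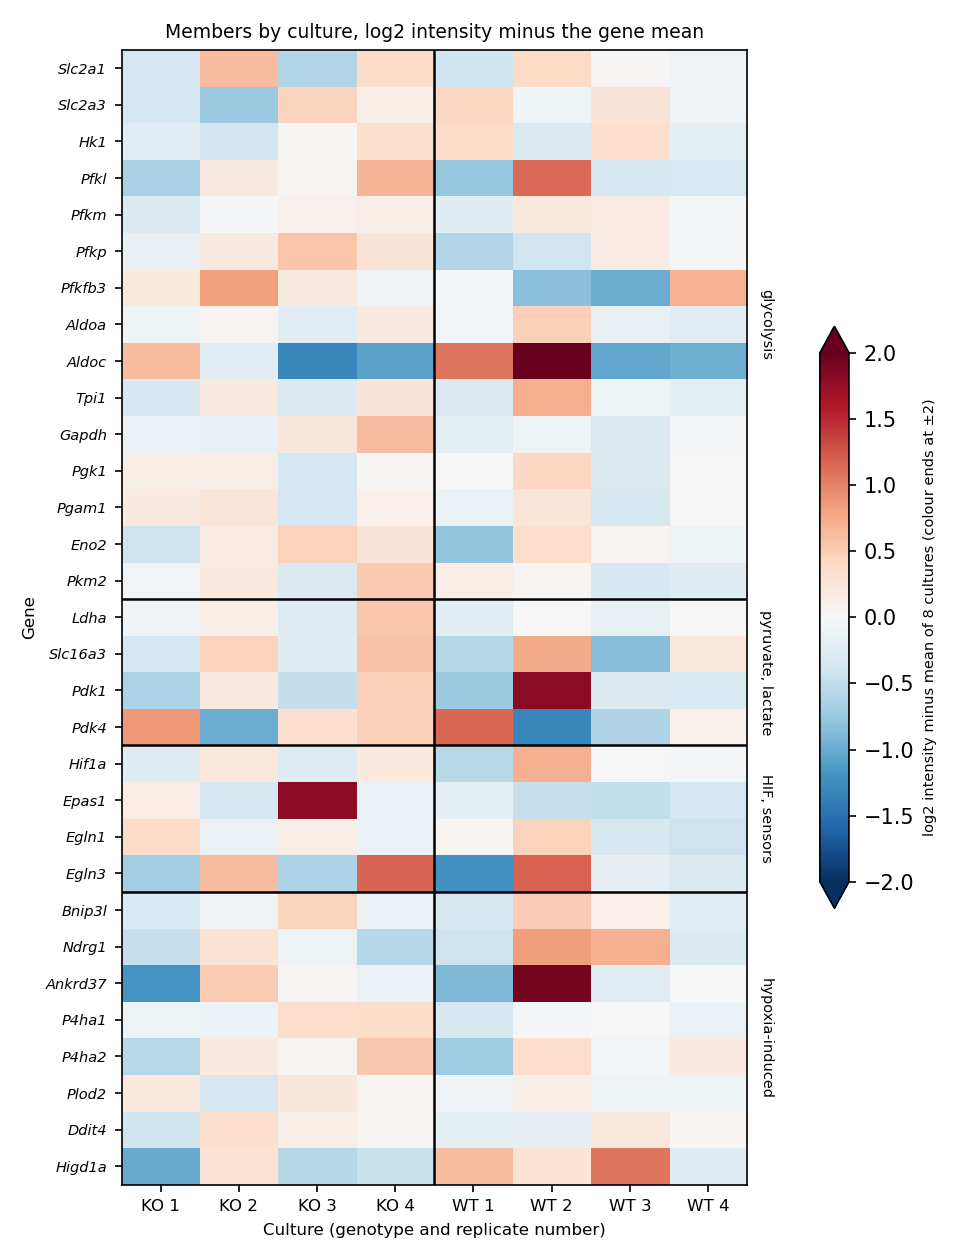
Log2 intensity of each of the 31 tested genes minus its mean over the 8 cultures (colour, ending at ±2), with KO cultures left and WT cultures right, and genes in rows by role. WT replicate 2 has the highest level of 14 of the 31 genes, and WT replicate 1 the lowest level of 9.

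At the exit of the pathway, Ldha, the lactate dehydrogenase subunit that favours lactate formation, had log2 intensities of 13.45, 13.66, 13.27 and 14.09 in KO replicates 1 to 4, against 13.32, 13.54, 13.39 and 13.54 in WT replicates 1 to 4. KO replicate 4 was the highest culture and KO replicate 3 the lowest. The log2 fold change of 0.17 ± 0.19 (SE) was 0.01 without KO replicate 4, and the 95% interval ran from -0.27 to 0.61. Slc16a3, the transporter that exports lactate from glycolytic cells, had log2 intensities of 5.18, 5.98, 5.28 and 6.11 in KO replicates 1 to 4, against 4.94, 6.27, 4.66 and 5.72 in WT replicates 1 to 4. Both groups held 2 low and 2 high cultures, and the log2 fold change was 0.24 ± 0.38 (SE).

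The pyruvate dehydrogenase kinases varied more between cultures than between genotypes. Pdk1, the form that hypoxia-inducible factors induce, had log2 intensities of 6.42, 7.22, 6.57 and 7.52 in KO replicates 1 to 4, against 6.31, 8.85, 6.75 and 6.74 in WT replicates 1 to 4. WT replicate 2 was 2.11 above the median of the other 7 cultures on the log2 scale, and the log2 fold change of -0.23 ± 0.54 (SE) was 0.33 without it. Pdk4, a form induced by fasting and by FOXO factors, had log2 intensities of 8.78, 6.93, 8.25 and 8.39 in KO replicates 1 to 4, against 9.07, 6.61, 7.31 and 8.00 in WT replicates 1 to 4. Here replicate 2 was the lowest culture of each group, and WT replicate 2 lay 1.64 log2 units below the others' median (a difference of -1.64). The log2 fold change of 0.34 ± 0.56 (SE) was -0.04 without WT replicate 2.

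The transcripts of the oxygen-sensing factors did not differ beyond their spread. Hif1a, the oxygen-regulated subunit present in most cells, had log2 intensities of 7.84, 8.29, 7.83 and 8.28 in KO replicates 1 to 4, against 7.53, 8.79, 8.07 and 8.04 in WT replicates 1 to 4. The KO cultures lay inside the WT range, and the log2 fold change was -0.05 ± 0.27 (SE), or 0.18 without WT replicate 2. The arrays measure the transcript, while the factor is controlled mainly as a protein. Epas1, which encodes HIF2α and is best known from endothelium, had log2 intensities of 4.95, 4.47, 6.61 and 4.68 in KO replicates 1 to 4, against 4.62, 4.34, 4.31 and 4.44 in WT replicates 1 to 4. It was detected on 3 of 4 KO arrays and 1 of 4 WT arrays, and its log2 fold change of 0.75 ± 0.43 (SE) was 0.27 without KO replicate 3. A second Epas1 probe gave -0.21 and was detected on 0 of 4 KO and 1 of 4 WT arrays. Of 8 endothelial markers 5 were tested, and Pecam1 and Cldn5 were not detected on every array. Their mean centred log2 level was 0.61 in KO replicate 3, at the top of a KO range that began at -0.30. WT cultures ranged from -0.97 to 0.63, and the 0.63 was that of WT replicate 3, whose Epas1 of 4.31 was the lowest of all. The part of these markers in the level of Epas1 was not tested.

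Of the prolyl hydroxylases, Egln1, the main oxygen sensor, had log2 intensities of 6.97, 6.48, 6.72 and 6.47 in KO replicates 1 to 4, against 6.66, 7.08, 6.29 and 6.19 in WT replicates 1 to 4. The ranges overlapped and the log2 fold change was 0.11 ± 0.23 (SE), where the other 2 probes gave 0.40 and -0.09. Egln3, a hydroxylase that is itself induced by hypoxia, had log2 intensities of 5.99, 7.28, 6.06 and 7.83 in KO replicates 1 to 4, against 5.45, 7.85, 6.50 and 6.38 in WT replicates 1 to 4. KO replicates 2 and 4 and WT replicate 2 were high, and WT replicate 1 was the lowest. The log2 fold change of 0.24 ± 0.57 (SE) was 0.68 without WT replicate 2 and -0.12 without WT replicate 1.

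**Figure D3:**
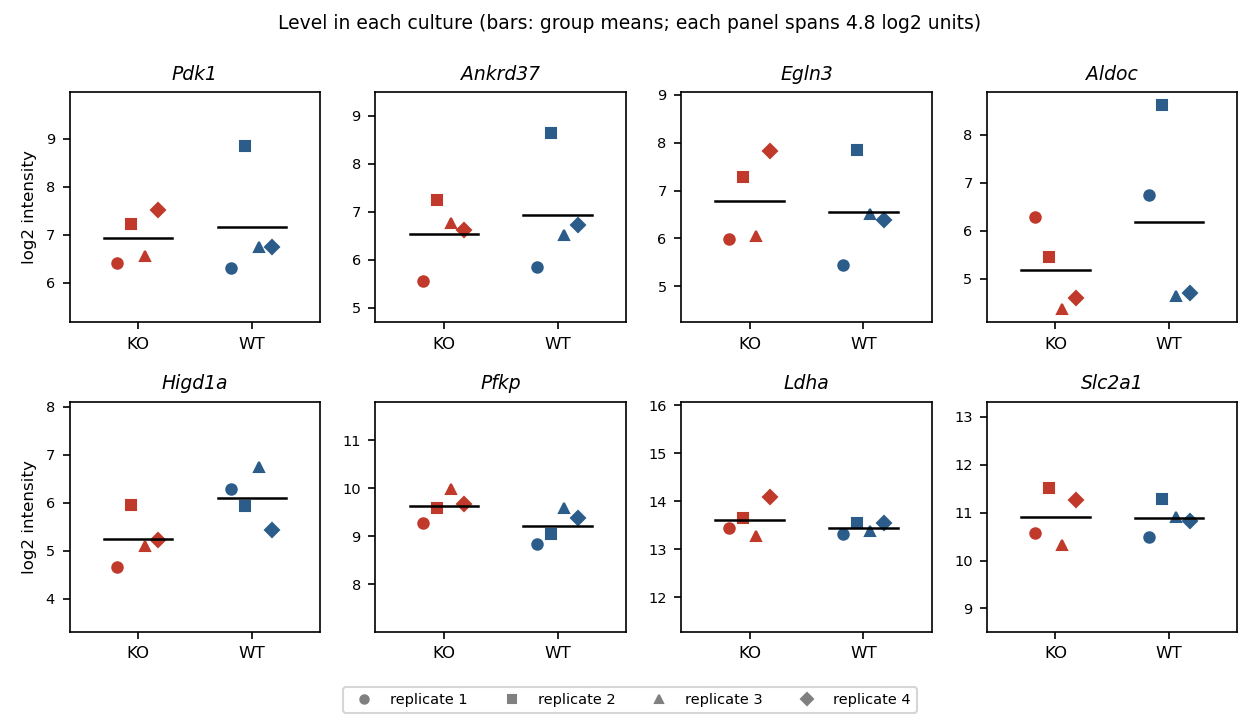
Log2 intensity of 8 genes in each KO culture (left, red) and WT culture (right, blue), with marker shape for the replicate number and bars for the group means, on panels of equal span. Pdk1, Ankrd37, Egln3 and Aldoc spread widely with WT replicate 2 highest, while Ldha and Slc2a1 are compact and overlap. WT replicate 2 and KO replicate 4 are close for Egln3, at 7.85 and 7.83.

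Among the genes that hypoxia induces, Higd1a, a small protein of the inner mitochondrial membrane, was the one with an unadjusted p under 0.05. Its log2 intensities were 4.67, 5.96, 5.10 and 5.22 in KO replicates 1 to 4, against 6.29, 5.94, 6.75 and 5.43 in WT replicates 1 to 4. 3 KO cultures lay below all WT cultures, and KO replicate 2 lay above WT replicates 2 and 4. The means were 5.24 ± 0.53 (SD, n = 4) in KO and 6.10 ± 0.55 (SD, n = 4) in WT. KO over WT this was -0.87 ± 0.34 (SE) on the log2 scale, or 0.55-fold, with an unadjusted limma p of 0.033, an adjusted p of 0.828 and an exact permutation p of 0.086, two-sided, where the smallest that 4 against 4 cultures allow is 0.029. The Higd1a probe was detected on every array but was dim, at a mean log2 level of 5.67. The lowest detected log2 intensity of an array was 4.51 to 4.62. Computed from the value table that the authors normalized, the difference was -0.31 with an unadjusted limma p of 0.066. Without background correction it was -0.32. The sign was the same in each of the 18 alternatives run, with values between -1.11 and -0.31, while the unadjusted limma p ran from 0.0089 to 0.145 over them. With 3.13% of all genes lower in KO at that p, 1 such gene among 31 is near the background.

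Higd1a did not bring the rest of the hypoxia-induced set with it. 4 of the 8 tested genes were higher in KO by sign and 4 lower, with a median log2 fold change of 0.02. Ndrg1, a stress-induced differentiation gene, had log2 intensities of 8.06, 8.80, 8.43 and 7.95 in KO replicates 1 to 4, against 8.10, 9.36, 9.23 and 8.24 in WT replicates 1 to 4. WT replicates 2 and 3 were the highest cultures. The log2 fold change of -0.43 ± 0.34 (SE) was -0.22 without WT replicate 2, and the second probe gave -0.12. Ankrd37, an ankyrin-repeat gene known as a direct target of hypoxia-inducible factor and described after its values were seen, stood at 5.55, 7.25, 6.77 and 6.61 in KO replicates 1 to 4 and at 5.84, 8.65, 6.52 and 6.73 in WT replicates 1 to 4. WT replicate 2 was again the highest culture, and the log2 fold change of -0.39 ± 0.59 (SE) was 0.18 without it.

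The collagen-modifying enzymes of the set are hypoxia targets that also serve matrix synthesis in smooth muscle. P4ha1, a catalytic subunit of collagen prolyl 4-hydroxylase, had log2 intensities of 10.03, 10.00, 10.48 and 10.49 in KO replicates 1 to 4, against 9.80, 10.09, 10.12 and 10.00 in WT replicates 1 to 4. The KO cultures of slide 2 were the high ones, the log2 fold change was 0.25 ± 0.18 (SE) with all cultures and 0.01 within slide 1, and a second probe gave -0.33. P4ha2, the other catalytic subunit, and Plod2, the lysyl hydroxylase of collagen cross-links, had log2 fold changes of 0.13 ± 0.30 and 0.07 ± 0.17 (SE). Bnip3l, a mitophagy receptor, and Ddit4, an inhibitor of mTORC1, stood at -0.02 ± 0.24 and 0.06 ± 0.19 (SE).

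Set against each other, hypoxia-type genes and glycolysis genes did not part between genotypes. The median log2 fold change was 0.06 over the 12 tested hypoxia-type genes and 0.03 over the 15 tested glycolysis genes. The mean centred level of the hypoxia-type genes minus that of the glycolysis genes was -0.23, 0.04, 0.23 and -0.11 in KO replicates 1 to 4, against -0.26, 0.12, 0.24 and -0.04 in WT replicates 1 to 4. The difference between the group means was -0.03, smaller than the SD of 0.20 in KO and 0.22 in WT, and it was -0.11 within slide 1. In both groups the replicates ranked 1, 4, 2 and 3 from lowest to highest. These SDs therefore include a spread that same-numbered cultures shared. The mean and the median differ in sign for the hypoxia-type genes, whose mean centred level was -0.01 apart between the groups, and for the hypoxia-induced genes, where it was -0.15.

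The larger pattern lay between cultures within a group, and was described after the values were seen. WT replicate 2 had the highest level of 14 of the 31 genes (45.2%) and the lowest of 1 (3.23%), whereas over all genes it was highest in 21.0% and lowest in 21.3%. The 14 included 6 of 15 glycolysis genes, 2 of 4 pyruvate and lactate genes and 6 of 12 hypoxia-type genes. Relative to the median of the other 7 cultures, WT replicate 2 was higher by a median of 0.23 over the glycolysis genes and of 0.55 over the hypoxia-type genes on the log2 scale, against -0.01 over all genes. Its distance above the others' median was 3.91 for Aldoc, 2.11 for Pdk1, 2.04 for Ankrd37, 1.48 for Egln3, 1.43 for Pfkl and 1.12 for Ndrg1, while it was 0.09 for Ldha and 0.04 for Gapdh. WT replicate 2 lay more than 1 log2 unit above the others' median in 6 of the 31 genes (19.4%), against 6.87% of all genes. It lay below that median in 7 of the 31, with differences of -1.64 for Pdk4, -1.02 for Pfkfb3, -0.55 for Pfkp, -0.31 for Hk1, -0.28 for Epas1, -0.23 for Ddit4 and -0.20 for Slc2a3. At the other end, WT replicate 1 had the lowest level of 9 of the 31 genes, 5 of them hypoxia-type, against 12.03% of all genes.

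**Figure D4:**
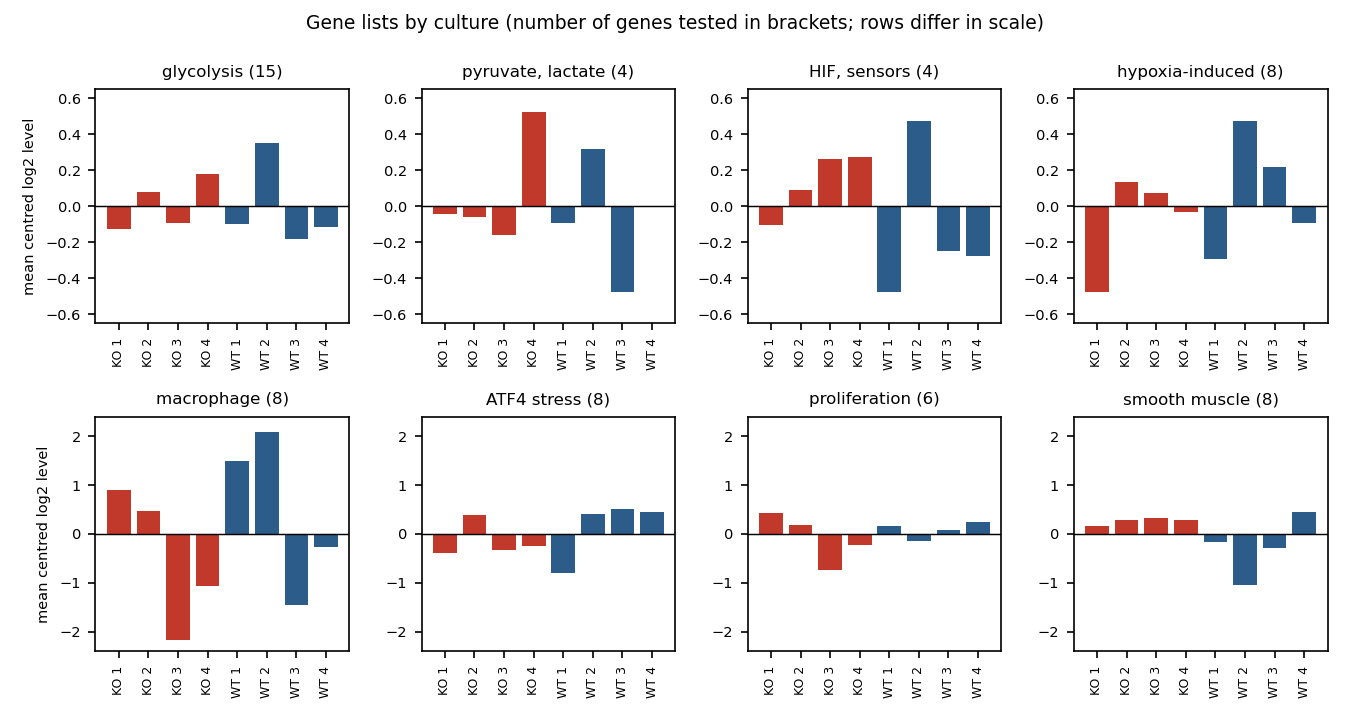
Mean log2 level, centred per gene, of the 4 roles (top row) and of 4 marker lists (bottom row, on a wider scale) in each KO culture (left, red) and WT culture (right, blue). WT replicate 2 is the highest culture in 3 of the 4 roles, where KO replicate 4 leads the pyruvate and lactate genes at 0.52. It is highest in macrophage markers at 2.08 and lowest in smooth muscle markers at -1.05.

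WT replicate 2 differed from the other cultures in its marker lists too. Its mean centred level of 8 smooth muscle markers was -1.05, the lowest of all cultures, where KO cultures ranged from 0.16 to 0.34 and the WT maximum was 0.44. Its level of 8 macrophage markers was 2.08, the highest, where KO cultures ranged from -2.17 to 0.90 and the WT minimum was -1.45. Its level of 6 fibroblast markers was 0.98, also the highest, where KO cultures ranged from -0.83 to 0.53. All 8 smooth muscle markers were higher in KO by sign and all 6 fibroblast markers lower, none at an unadjusted limma p under 0.05. The smooth muscle level differed by 0.53 (KO minus WT), by 0.49 within slide 1 and by 0.27 without WT replicate 2. The fibroblast level differed by -0.45, -0.21 and -0.20. WT replicate 1, where the hypoxia-type genes were low, also had a high macrophage level of 1.49. In a culture, more cells of another type and more RNA of a gene per cell cannot be told apart, and the part of these cell types in the levels was not tested. The mean centred level of 8 ATF4 stress genes was -0.39, 0.39, -0.32 and -0.25 in KO replicates 1 to 4 and -0.80, 0.41, 0.52 and 0.44 in WT replicates 1 to 4. That of 6 proliferation genes was 0.43, 0.18, -0.73 and -0.23 in KO replicates 1 to 4 and 0.17, -0.14, 0.08 and 0.25 in WT replicates 1 to 4.

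With WT replicate 2 left out, 25 of the 31 genes were higher in KO by sign and 6 lower, in place of 18 and 13, and 9 genes changed sign. WT replicate 2 had the highest level of 14 of these genes, so leaving it out lowers their WT means by construction. The share of all genes by sign without it was not computed. 1 of the 31 then had an unadjusted limma p under 0.05, again Higd1a at -0.92, against 4.17% of all genes, and 0 passed the adjusted threshold. The median log2 fold change without it was 0.16 for the glycolysis genes and 0.18 for the hypoxia-type genes, against -0.0044 over all genes.

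Further genes of both pathways were described in the same way. Of 40 further genes of glycolysis and pyruvate use, 24 were tested. In KO 12 were higher and 12 lower by sign, and their median log2 fold change was 0.0011. 0 passed in limma and 0 reached an unadjusted p under 0.05. Dld, a subunit of pyruvate dehydrogenase, stood at -0.65 ± 0.30 (SE), at -0.12 within slide 1 and at -0.66 without WT replicate 2. Pfkfb2, another enzyme of the phosphofructokinase activator, stood at -0.40 ± 0.21 (SE), at -0.67 within slide 1 and at -0.39 without WT replicate 2. Eno3, the muscle enolase, and Pfkfb4 stood at 0.70 ± 0.50 and 0.49 ± 0.33 (SE). Without WT replicate 2 they stood at 0.25 and 0.27, and within slide 1 at 0.79 and 0.44.

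Of 43 further hypoxia genes, 36 were tested. In KO 17 were higher and 19 lower by sign, their median log2 fold change was -0.08, and again 0 passed in limma and 0 reached an unadjusted p under 0.05. Stc1, the hormone stanniocalcin 1, had log2 intensities of 9.24, 8.39, 7.68 and 7.47 in KO replicates 1 to 4, against 9.04, 5.16, 6.44 and 6.28 in WT replicates 1 to 4. WT replicate 1 lay inside the KO range and the other WT cultures below it. The log2 fold change of 1.46 ± 0.77 (SE) was 0.94 without WT replicate 2 and 2.09 within slide 1. Ets1, a transcription factor of vascular cells, stood at 0.51 ± 0.28 (SE), at 0.30 without WT replicate 2 and at 0.43 within slide 1. Plod1, a collagen lysyl hydroxylase, and Bhlhe40, a transcriptional repressor, stood at -0.50 ± 0.25 and -0.66 ± 0.34 (SE). Within slide 1 they stood at -0.24 and -0.32, and without WT replicate 2 at -0.31 and -0.41. The smallest adjusted p of these further hypoxia genes was 0.828.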

How the data were processed

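RNA from 4 KO and 4 WT cultures was measured on Illumina bead arrays, per the labels. Per the file headers, the scanner table as deposited holds a mean intensity over beads, a bead count and a detection p-value for 46237 probes per array, not normalized. The deposited value table holds linear intensities that the authors normalized, by a method not given in the sources used here. When rows were joined by the identifiers printed in each table, Spearman correlations between an array's values in them were at most -0.0047. Rows were therefore matched by their ranks on the 8 arrays, 46237 of 46237 one to one, and the value table's identifiers were used. Genes came from the platform annotation, with symbols updated through RefSeq (GRCm38.p6), for 35784 probes.

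Intensities were processed with neqc of limma 3.58.1 (R 4.3.3), offset 16, which takes its background from the detection p-values, so dim genes are uncertain. Probes with a detection p under 0.05 on at least 4 arrays were kept, and the brightest kept probe represented a gene. Tests were limma's lmFit and eBayes, two-sided, with Benjamini-Hochberg adjustment over 11859 genes, checked on simulated data, and exact permutation tests over 70 assignments. The number of arrays limits the precision. A list's level in a culture is the mean over its tested genes of log2 intensity minus the gene's mean over the 8 cultures.

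The members and lists were chosen with earlier results of these data known, so no list was tested. Values in every culture are given for the 3 genes of each role with the smallest p and for Slc2a1, Pgk1, Ldha, Slc16a3, Pdk1, Pdk4, Hif1a, Epas1 and Egln3 (Hk2 and Bnip3, also named in this rule, gave no tested value). Of the further glycolysis and hypoxia lists, the 2 genes with the smallest p in each direction are named. The alternatives were the authors' value table, no background correction, normexp with offset 50, no filter, detection on all 8 arrays, the mean over probes, slide as a block, slide 1 alone, the replicate number as a block, array weights and leaving out each culture. No sequence was used here.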

Additional observations from a re-analysis of the deposited data

Results flagged for a closer look

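In 2 of 74 groups of 4 cultures, 1 culture stood apart from the other 3 by more than Dixon's 95% criterion, and chance alone flags about 1 in 20 groups. The mean centred level of the 15 glycolysis genes in WT cultures was 0.35 in WT replicate 2, where the next WT culture was at -0.10 and the lowest at -0.18. The mean centred level of the 12 hypoxia-type genes in KO cultures was -0.35 in KO replicate 1, where the other KO cultures lay between 0.07 and 0.14. No single gene of the 31 was flagged in either group.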

How the results depend on the processing

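0 genes passed the adjusted threshold in limma under each of the 18 alternatives, and the lowest adjusted p of a member over them was 0.547. The number of all genes with an unadjusted p under 0.05 was 681, and 1117 with no filter, where dim genes were added. The number of members at that p was 1, but 0 with array weights, with no background correction and with the values the authors normalized, and 0 to 2 when 1 culture was left out. It was not always Higd1a: with slide as a block it was Slc2a3 at a limma p of 0.018, and without KO replicate 1 or WT replicate 3 it was Pfkp. The number of members lower in KO by sign was 13, but 8 with array weights and 6 to 17 when 1 culture was left out, the lowest without WT replicate 2. The medians of both lists and their difference moved by less than the spread between cultures. 11 of the 31 members kept their sign in each alternative that tested them.

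The other 20, with log2 fold changes between -0.39 and 0.34, changed sign in at least 1 alternative. With slide as a block or within slide 1 (the same estimate) these were Pfkl (-0.17), Pgk1 (0.090), Eno2 (-0.0043), P4ha2 (-0.11), Plod2 (-0.028) and Ddit4 (-0.0045). With the mean over probes they were Pfkl (-0.14), Pfkm (0.0048), Tpi1 (0.028), Pgam1 (-0.24) and P4ha1 (-0.044). Array weights gave 0.11 for Aldoa, 0.097 for Tpi1, 0.039 for Pgk1, 0.16 for Pdk1, 0.055 for Hif1a, 0.050 for Bnip3l and -0.0095 for Ddit4, and the value table gave 0.0022 for Bnip3l. Leaving out 1 culture gave -0.17 to 0.23 for Slc2a1, -0.11 to 0.52 for Pfkl, -0.14 to 0.036 for Pfkm, -0.11 to 0.12 for Aldoa, -0.18 to 0.15 for Tpi1, -0.16 to 0.079 for Pgk1 and -0.0096 to 0.53 for Slc16a3. It gave -0.51 to 0.33 for Pdk1, -0.041 to 0.78 for Pdk4, -0.24 to 0.18 for Hif1a, -0.015 to 0.28 for Egln1, -0.12 to 0.68 for Egln3, -0.17 to 0.15 for Bnip3l, -0.75 to 0.18 for Ankrd37, -0.091 to 0.33 for P4ha2 and -0.045 to 0.20 for Ddit4. The cause of these changes was not tested.

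Same-numbered KO and WT cultures had correlations of their deviations of 0.32, 0.21, 0.29 and 0.06 for replicates 1 to 4. Each KO culture correlated best with the WT culture of its own number. The labels name no pairing and the correlation for replicate 4 was low, so the main fit took the cultures as unpaired. Whether same-numbered cultures share a source was not tested. With the replicate block, 0 genes passed the adjusted threshold in limma, 1005 had an unadjusted p under 0.05, and so did 1 member, which was Pfkp at a limma p of 0.026 in place of Higd1a at 0.0505. The dimness of Pfkfb3, Epas1, Aldoc and Slc16a3, each not detected on every array, limits what their differences show. That of Higd1a, detected on every array, does so too.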
